A study of Mus musculus with 46 samples.

Results

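The 10 genes described here encode heat shock chaperones: Hspa1a, Hspa1b, Hspa8, Hsph1, Hspb1, Dnajb1, Hsp90aa1, Hsp90ab1, Hspe1 and Hspd1. They were taken by symbol from 21231 genes listed in at least 1 of 3 expression tables. All 10 were listed in the table of the LPS experiment and in that of the GLOBAL experiment, and 9 in the table of SVZ tissue, where Hspa1b was not analysed here. In GRCm38.p6, Hspd1 and Hspe1 lie on chromosome 1, Hspb1 and Hsph1 on 5, Dnajb1 on 8, Hspa8 on 9, Hsp90aa1 on 12, and Hspa1a, Hspa1b and Hsp90ab1 on 17. Each listed member passed the limit on low values, an FPKM of at least 1 in at least 3 libraries. FPKM is the number of reads of a gene scaled by its length and by the depth of the library, so levels of different genes can be set side by side within a table.

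Chaperones bind unfolded proteins and help them reach or keep their folded state. HSP70 proteins bind short exposed stretches in cycles driven by ATP, J-domain (HSP40) proteins such as that of Dnajb1 bring clients and start the cycle, and HSP110 proteins such as that of Hsph1 exchange the nucleotide that ends it. HSP90 acts later on signalling proteins and receptors, small heat shock proteins hold unfolded chains, and the HSP60 and HSP10 pair of Hspd1 and Hspe1 forms the folding chamber of mitochondria. Hspa8 and Hsp90ab1 are made in unstressed cells, whereas Hspa1a and Hspa1b are the classic inducible genes, switched on by heat shock factor 1 through repeats of the letters GAA and TTC. In microglia, these genes are known to rise when brain tissue is taken apart into single cells, as are immediate early genes such as Fos and Jun.

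The 46 libraries came from male C57BL/6 mice. PLX3397, an inhibitor of the CSF1 receptor on which microglia depend, was fed at 600 ppm, and control mice received vehicle. Subventricular zone (SVZ) tissue was taken from control mice, from mice after 14 days of PLX3397, and from mice given 5 days without drug after those 14 days (n = 5 each; aged 1.5 months by the default of the methods, with no other age stated for this tissue). In the LPS experiment, mice stated as 2 months old at treatment were controls or had 14 days of PLX3397 and 28 days of recovery. The brains of the latter held white matter (WM) repopulating cells. CD11b+CD45int cells were sorted from whole hemispheres. They were collected without LPS (0 hr; control n = 3, WM n = 4), 6 hr (control n = 5, WM n = 4) or 24 hr (n = 4 each) after 0.33 mg/kg of lipopolysaccharide (LPS), a bacterial product that activates microglia. In the GLOBAL experiment, the same kind of cell was sorted from controls (n = 4) and from repopulated mice (n = 3). The latter had 7 days of PLX3397 and 28 days of recovery. Mice of this experiment were also stated as 2 months old at treatment, so repopulated mice of both experiments were older at sorting. The gate selects myeloid cells and not a cell type by its genes, and p-values measure the spread between libraries. The methods give n as the number of mice in a group, and the labels do not tie a library to a mouse.

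Reads on listed genes, recovered from the steps between low values, ranged from 4288294 to 9973761 per SVZ library, from 4406064 to 9760603 in the LPS experiment and from 1833801 to 4832332 in the GLOBAL experiment. Summed over 8 microglial markers, sorted libraries held at least 11237 FPKM, against 229 to 320 FPKM in SVZ control tissue and 13.3 to 16.98 FPKM after 14 days of PLX3397. Summed neutrophil markers were also present in each sorted group, with group medians from 742 FPKM (WM 6 hr) to 8827 FPKM (control 24 hr). The highest sorted library, GLOBAL control replicate 1, held 22592 FPKM. Over all tested genes, control 6 hr replicate 2 and control 24 hr replicate 4 had the lowest mean correlation with the other libraries of their groups (0.938 and 0.947). These libraries are named below where a result rests on them.

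The stretches before the start of the inducible genes are shown because they carry the letters that heat shock factor 1 is known to read. Matches to GAANNTTC or TTCNNGAA, each of which reads the same on both strands, are in capitals and may overlap each other. RefSeq windows of GRCm38.p6, of 250 bases before to 50 bases after a start, matched 7 of the 10 members by symbol. Such a match stood in at least 1 window of 6 of them (Hspa1a, Hspa1b, Hsph1, Hspb1, Hspe1 and Hspd1), and in neither window of Dnajb1. Of 32851 windows of this length, 15.1% held at least 1 match, 1.96% at least 2 and 0.256% at least 3. The 250 bases before the starts of Hspa1a (chr17:34972157-34972406, minus strand), Hspa1b (chr17:34959239-34959488, minus strand) and Hspb1 (chr5:135887669-135887918, plus strand) read as follows.
Hspa1a: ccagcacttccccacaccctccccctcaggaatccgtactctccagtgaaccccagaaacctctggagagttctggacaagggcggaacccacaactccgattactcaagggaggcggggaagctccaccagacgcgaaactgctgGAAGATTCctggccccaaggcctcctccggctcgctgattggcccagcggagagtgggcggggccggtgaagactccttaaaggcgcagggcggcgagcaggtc
Hspa1b: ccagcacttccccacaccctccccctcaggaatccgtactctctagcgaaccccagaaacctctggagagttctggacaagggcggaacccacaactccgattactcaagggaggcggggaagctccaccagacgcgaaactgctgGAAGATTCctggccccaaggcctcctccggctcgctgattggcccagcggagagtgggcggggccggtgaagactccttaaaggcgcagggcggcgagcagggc
Hspb1: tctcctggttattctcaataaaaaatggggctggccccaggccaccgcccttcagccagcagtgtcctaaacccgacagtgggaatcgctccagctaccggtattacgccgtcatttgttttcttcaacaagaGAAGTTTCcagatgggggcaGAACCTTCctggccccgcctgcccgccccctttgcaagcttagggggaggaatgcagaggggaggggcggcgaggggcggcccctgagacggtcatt

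Hspa1a and Hspa1b differed at 3 of these 250 bases, and the match began at the same place in both, 104 bases before the start. Hspe1 and Hspd1 lie head to head on chromosome 1, with 96 bases of overlap between the annotated genes, and share a run of 3 overlapping matches, so it counts for both. The run is shown on the plus strand (chr1:55088053-55088082), the direction of Hspe1.
Hspe1: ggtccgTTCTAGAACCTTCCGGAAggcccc

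The tables differed in which chaperone was most abundant. In SVZ control tissue, Hsp90ab1 came first of the 9 genes listed at 984 ± 84.9 FPKM (SD, n = 5), and Hspa1a last at 2.97 ± 1.66 FPKM (SD, n = 5), which rested on 16 to 84 reads per library. In control cells without LPS, Hsp90ab1 was also first at 597 ± 37.6 FPKM (SD, n = 3), with Hspa1a at 307 ± 100 FPKM and Dnajb1 at 305 ± 53.5 FPKM behind it (SD, n = 3 each). In GLOBAL control cells, Hspa1a came first at 1067 ± 563 FPKM (SD, n = 4). The tables were normalized separately, so these levels stand side by side without a test. Summed immediate early genes (14 genes) ran from 268 to 574 FPKM in SVZ control tissue and from 11924 to 12694 FPKM in control cells without LPS. The part of cell isolation in the chaperone levels was not tested.

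Hspa1a and Hspa1b encode nearly the same protein, and their reads are hard to assign. Of all windows of 43 bases in the longest Hspa1a transcript of GENCODE, 60.6% were also found in Hspa1b (the length is that of the reads in the methods, and the labels describe longer reads, for which no share was computed), and 64.2% of those of Hspa1b in Hspa1a. Hspa1b stood at 0.894% to 19.3% of the FPKM of Hspa1a in the LPS experiment (median 3.49%, 24 libraries) and at 62.3% to 70.9% in the GLOBAL experiment (median 64.1%, 7 libraries). The levels of either gene are uncertain for this reason. Windows shared with other genes also made up 59.96% for Hsp90aa1, 54.3% for Hspa8, 53.4% for Hspb1 and 48.0% for Hspd1, mostly with pseudogenes, against 9.76% for Hspe1, 6.90% for Hsp90ab1, 0.643% for Dnajb1 and 0% for Hsph1.

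In control cells, LPS was followed at 6 hr by lower Hspa1a, Hspa1b, Hspb1 and Dnajb1 and higher Hspd1, and at 24 hr by higher Hspa8, Hsph1, Hsp90ab1, Hspe1 and Hspd1. With limma on log2(FPKM + 1), 2-sided, and Benjamini-Hochberg adjustment over all 12684 genes tested, 5 of 10 members were called at 6 hr against 0 hr (adjusted p under 0.05; Hspa1a, Hspa1b, Hspb1 and Dnajb1 lower, Hspd1 higher), where 42.5% of all genes were called, so the share of members was close to that of all genes. At 24 hr against 0 hr, 5 of 10 were called, all higher, where 21.3% of all genes were called. In WM repopulating cells, 8 of 10 were called at 6 hr (Hspa1a, Hspa1b, Hsph1, Hspb1, Dnajb1, Hsp90aa1 and Hspe1 lower, Hspd1 higher), where 38.8% of all genes were called, and 2 of 10 at 24 hr (Hspb1 and Dnajb1 lower), where 18.8% were called. The median log2 fold change of the members was -0.18 and 0.95 in control cells at 6 and 24 hr and -1.03 and -0.25 in WM cells, while the median of all tested genes was at most 0.02 from 0 in each. As each library is a pool of cells, fewer cells with a high level and less RNA per cell cannot be told apart.

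Other gene lists moved in the same comparisons. Of 14 immediate early genes, 8 were called lower and 1 higher at 6 hr in control cells, and 11 lower and 1 higher in WM cells. At 24 hr, 9 were lower in control cells, while 1 was lower and 2 were higher in WM cells. Their sum stood at 6193 to 9290 FPKM at 6 hr in control cells, below the 11924 to 12694 FPKM without LPS, and at 7969 to 10365 FPKM in WM cells, below 16282.5 to 18457 FPKM. Of 8 microglial markers, 7 were lower at each time in both kinds of cell. Of 5 monocyte markers, 4 were higher at 6 hr in both, with a sum of 1176 to 2369 FPKM in control cells against 103 to 334 FPKM without LPS. Of 6 neutrophil markers, 5 were lower at 6 hr in WM cells and 1 in control cells. Of 5 choroid plexus markers, 4 were lower at 24 hr in WM cells, and of 5 tested markers of border-associated macrophages, 3 were lower and 1 higher at 6 hr in control cells. The part of these changes in those of the chaperones was not tested.

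**Figure D1:**
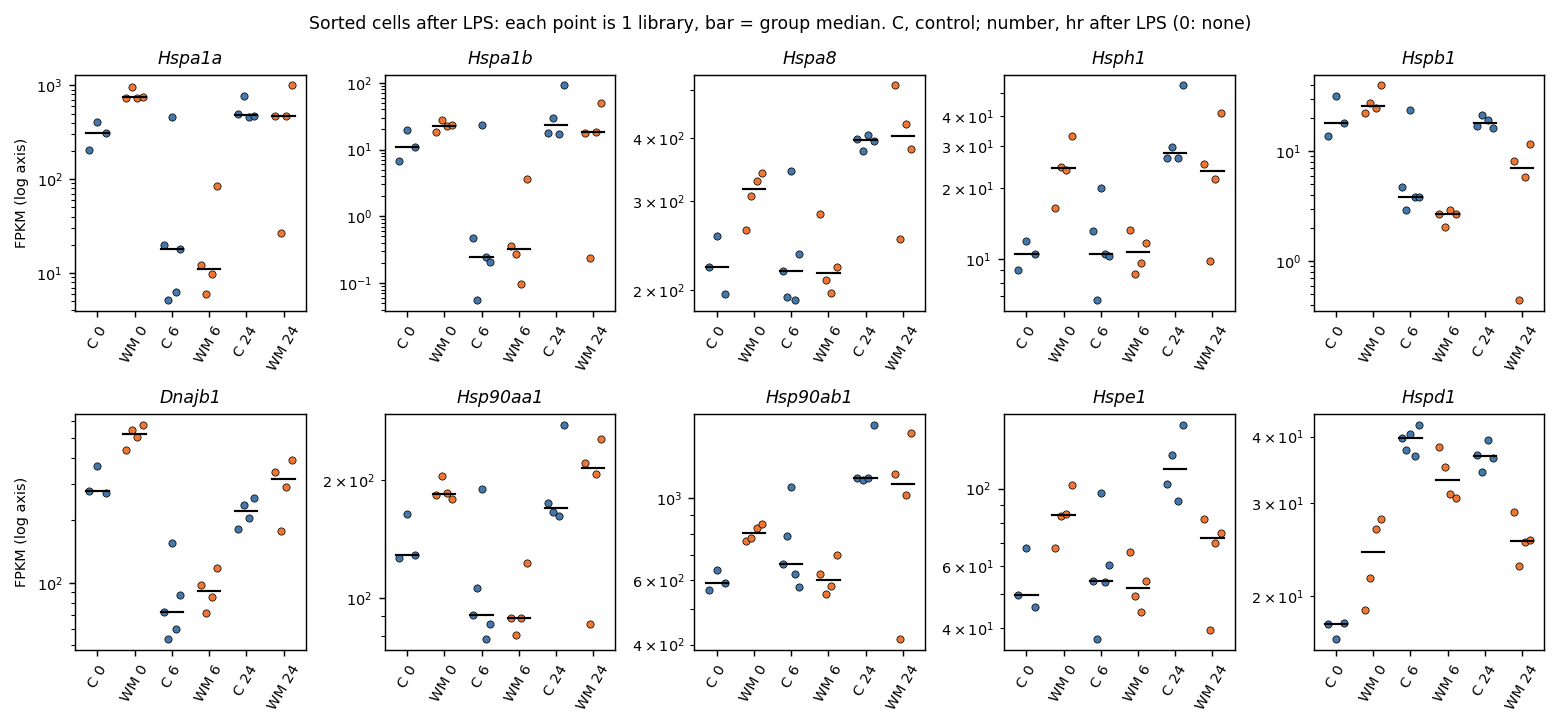
FPKM of the 10 chaperone genes on log axes in the 24 libraries of sorted cells, with 1 point per library and a bar at the group median, for control (C, blue) and WM repopulating (WM, orange) cells at 0, 6 and 24 hr after LPS. Hspa1a fell to between 5.15 and 19.9 FPKM in 4 of 5 control libraries at 6 hr while replicate 3 stood at 458 FPKM, and WM 24 hr replicate 2 lay below the rest of its group for each gene shown.

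Hspa1a, the leading inducible HSP70 gene, stood at 204, 404 and 313 FPKM in the 3 control libraries without LPS. The levels at 6 hr were 19.9, 5.15, 458, 6.23 and 18.2 FPKM in replicates 1 to 5. At 24 hr, it stood at 499, 773, 458 and 476 FPKM. All libraries at 6 hr but replicate 3 were below every library at 0 hr, and replicate 3 was above them. All libraries at 24 hr were above all at 0 hr. The fitted log2 fold change was -3.62 ± 1.06 (SE) at 6 hr (limma adjusted p = 0.00783) and 0.86 ± 1.11 (SE) at 24 hr (limma adjusted p = 0.626). With only the 2 groups compared in the fit, the value at 24 hr was called (SE 0.26; limma adjusted p = 0.0451), where 17.5% of all genes were called. Leaving out control 6 hr replicate 3 together with WM 24 hr replicate 2 gave -4.68 ± 0.57 (SE) at 6 hr (limma adjusted p = 8.0e-07). Both libraries were chosen after seeing their Hspa1a levels, so the smaller error follows from that choice and is no separate support.

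The same gene also fell in WM repopulating cells at 6 hr. It stood at 725, 950.3, 736 and 751 FPKM without LPS. The levels at 6 hr were 12.2, 6.01, 9.67 and 83.6 FPKM, all below the lowest library at 0 hr. At 24 hr, it stood at 466, 26.6, 475 and 1003 FPKM, with replicate 2 within the range at 6 hr and replicate 4 above that at 0 hr. The log2 fold change at 6 hr was -5.53 ± 1.02 (SE; limma adjusted p = 0.000141), and at 24 hr it was -1.49 ± 1.02 (SE; limma adjusted p = 0.338). The response in WM minus that in control cells was -1.91 at 6 hr, with a 95% interval of -4.95 to 1.13, and -2.35 at 24 hr, with one of -5.47 to 0.76. Without WM 24 hr replicate 2, the value at 24 hr in WM cells was -0.37 ± 0.95 (SE; limma adjusted p = 0.837), and the response at 24 hr -1.24 ± 1.34 (SE; limma adjusted p = 0.87).

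Hspa1b, the near copy, stood at far lower levels. In control cells at 6 hr, it stood at 0.467, 0.0557, 23.4, 0.248 and 0.204 FPKM, and outside replicate 3 these values rested on 1 to 8 reads. Replicate 3 again stood apart, with 458 reads. The log2 fold change at 6 hr was -2.46 ± 0.94 (SE; limma adjusted p = 0.0369) in control cells and -3.78 ± 0.91 (SE; limma adjusted p = 0.00184) in WM cells. The value in control cells lost its call without any single one of control 0 hr replicate 2 or 3 or control 6 hr replicate 1, 2, 4 or 5 (adjusted p from 0.0676 to 0.137). At 24 hr, control replicate 4 stood at 91.9 FPKM, against 17.1 to 29.7 FPKM in the other libraries of the group.

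Dnajb1, the J-domain partner that loads clients on HSP70, had the smallest adjusted p among the genes that fell. It stood at 277, 366 and 271 FPKM in control cells without LPS. At 6 hr, it stood at 72.5, 53.5, 156, 60.1 and 87.1 FPKM, and all 5 libraries were below all 3 at 0 hr, replicate 3 included. At 24 hr, it stood at 183, 238, 206 and 258 FPKM, all below the libraries at 0 hr. That change was not called (log2 fold change -0.46 ± 0.27, SE; limma adjusted p = 0.253). The log2 fold change at 6 hr was -1.91 ± 0.26 (SE; limma adjusted p = 3.0e-06) in control cells and -2.47 ± 0.25 (SE; limma adjusted p = 5.6e-08) in WM cells. WM cells went from 435 to 579 FPKM without LPS to 71.5 to 118 FPKM at 6 hr, and to 342, 179, 291 and 391 FPKM at 24 hr. Their level at 24 hr was still below that at 0 hr (log2 fold change -0.83 ± 0.25, SE; limma adjusted p = 0.0245), a call that was lost without WM 0 hr replicate 2 or 4 or WM 24 hr replicate 2 (adjusted p from 0.0585 to 0.112).

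Hspb1, which encodes the small heat shock protein HSP25, fell at 6 hr in both kinds of cell and stayed low at 24 hr in WM cells. In control cells, it stood at 13.8, 31.8 and 18.1 FPKM without LPS. Replicates 1 to 5 at 6 hr had 4.73, 2.95, 23.7, 3.86 and 3.81 FPKM, where replicate 3 lay within the range at 0 hr and the other libraries below it. At 24 hr, it stood at 16.9, 21.1, 19.02 and 16.1 FPKM. The log2 fold change in control cells was -1.66 ± 0.52 (SE; limma adjusted p = 0.0127) at 6 hr, which was lost without control 0 hr replicate 2 (adjusted p = 0.0837).

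In WM cells, Hspb1 stood at 22.4, 27.2, 24.6 and 39.7 FPKM without LPS. At 6 hr, it stood at 2.70, 2.05, 2.90 and 2.68 FPKM, which rested on 12 to 19 reads per library. At 24 hr, it stood at 8.22, 0.444, 5.87 and 11.7 FPKM, with 3 reads in replicate 2, all below the libraries at 0 hr and below the control libraries at 24 hr. The log2 fold changes were -3.01 ± 0.51 (SE; limma adjusted p = 4.6e-05) at 6 hr and -2.30 ± 0.51 (SE; limma adjusted p = 0.00222) at 24 hr. Leaving out WM 24 hr replicate 2, which had the lowest level, with control 6 hr replicate 3 gave -1.63 ± 0.24 (SE; limma adjusted p = 6.9e-05) at 24 hr. Both libraries were chosen after seeing their Hspa1a levels, so the smaller error is no separate support.

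Hspd1, the mitochondrial HSP60, moved the other way at 6 hr. It had the smallest residual SD of the members over all groups together, though not within each group. It stood at 17.7, 16.6 and 17.8 FPKM in control cells without LPS. At 6 hr, it stood at 39.7, 37.7, 40.4, 36.8 and 42.2 FPKM, and at 24 hr at 37.0, 34.3, 39.5 and 36.5 FPKM. No library after LPS overlapped those without it. The log2 fold change was 1.14 ± 0.12 (SE; limma adjusted p = 1.2e-07) at 6 hr and 1.04 ± 0.13 (SE; limma adjusted p = 4.9e-06) at 24 hr.

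In WM cells, Hspd1 stood at 18.8, 21.7, 26.7 and 27.9 FPKM without LPS. At 6 hr, it stood at 38.2, 35.0, 31.2 and 30.6 FPKM, above all libraries at 0 hr, and at 24 hr at 28.8, 22.8, 25.3 and 25.5 FPKM, where replicate 1 stood just above the range at 0 hr and the others within it. The log2 fold changes were 0.50 ± 0.12 (SE; limma adjusted p = 0.00201) and 0.11 ± 0.12 (SE; limma adjusted p = 0.555). For the response in WM minus that in control cells, 0 of 10 members were called at 6 hr (0.0237% of all genes called; 3 members and 7.20% of all genes at an unadjusted p under 0.05 in limma) and 1 of 10 at 24 hr, Hspd1 (0.0867% of all genes called). Its response at 24 hr was lower in WM cells by a log2 of -0.93 ± 0.18 (SE; limma adjusted p = 0.0322). The call was lost without any single one of 11 of the 15 libraries compared (adjusted p from 0.0501 to 0.0899).

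Its partner in the chamber, Hspe1, stood at 49.6, 67.9 and 45.8 FPKM in control cells without LPS and at 103, 124, 92.0 and 152 FPKM at 24 hr, with no overlap. The log2 fold change in control cells at 24 hr was 1.10 ± 0.26 (SE; limma adjusted p = 0.00361). At 6 hr, the 5 control libraries ran from 37.1 to 97.2 FPKM with a median of 54.5 FPKM and spanned those at 0 hr. In WM cells, it stood at 67.8 to 103 FPKM without LPS and at 44.6 to 65.9 FPKM at 6 hr, a log2 fold change of -0.65 ± 0.24 (SE; limma adjusted p = 0.0354). That call was lost without any single one of 6 libraries (adjusted p from 0.0559 to 0.105), and Hspe1 and Hspd1 thus had fitted changes of opposite sign in the same WM libraries, a difference that was not tested. Hspa8, at -0.45 in the same comparison (limma adjusted p = 0.0587), was called without WM 0 hr replicate 1 (adjusted p = 0.0454) or WM 6 hr replicate 1 (adjusted p = 0.0304).

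Hsph1 and the constitutive genes Hspa8 and Hsp90ab1 rose at 24 hr in control cells and were not called there at 6 hr. Hsph1 stood at 9.07, 11.9 and 10.5 FPKM without LPS and at 26.6, 29.6, 26.6 and 53.8 FPKM at 24 hr, a log2 fold change of 1.55 ± 0.34 (SE; limma adjusted p = 0.00213). Without control 24 hr replicate 4, the highest, and control 6 hr replicate 2, it was 1.32 ± 0.32 (SE; limma adjusted p = 0.00513). These libraries stood apart over all genes and were chosen after seeing the data. Hspa8 stood at 222, 256 and 196 FPKM without LPS and at 398, 377, 407 and 396 FPKM at 24 hr. Its log2 fold change was 0.82 ± 0.20 (SE; limma adjusted p = 0.00497). Hsp90ab1 stood at 564, 638 and 589 FPKM and then at 1137, 1121, 1131 and 1584 FPKM, a log2 fold change of 1.04 ± 0.28 (SE; limma adjusted p = 0.00836). For each of these genes, all libraries at 24 hr were above all at 0 hr, and the share of all tested genes that did so was not computed.

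Hsp90aa1, the inducible HSP90 gene, stood at 126, 164 and 129 FPKM in control cells without LPS and ran from 78.5 to 190.5 FPKM at 6 hr, with a median of 90.7 FPKM. Its highest library at 6 hr was again replicate 3, and the log2 fold change of -0.41 ± 0.28 (SE) was not called (limma adjusted p = 0.256). Without that library and WM 24 hr replicate 2, it was -0.62 ± 0.17 (SE; limma adjusted p = 0.0057). Both libraries were chosen after seeing their Hspa1a levels, so this call of Hsp90aa1 is no separate support. In WM cells, it went from 179 to 205 FPKM without LPS to 80.4 to 123 FPKM at 6 hr, with no overlap (log2 fold change -0.99 ± 0.27, SE; limma adjusted p = 0.00572). Hsph1 in WM cells went from 16.5 to 32.9 FPKM to 8.70 to 13.2 FPKM (log2 fold change -1.08 ± 0.32, SE; limma adjusted p = 0.00949).

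WM repopulating cells were next set against control cells at the same time. Without LPS, all 10 members had a fitted difference above 0, with a median of 0.55 on the log2 scale against 0.01 for all tested genes. By limma, 0 of 10 were called (1.21% of all genes called), while 5 of 10 members and 11.9% of all genes were under an unadjusted p of 0.05. Hsph1 differed most beside its error, by 1.11 ± 0.34 (SE; limma adjusted p = 0.135), followed by Hspd1 at 0.42 ± 0.13 (SE; limma adjusted p = 0.137). In 7 members (Hspa1a, Hspa8, Hsph1, Dnajb1, Hsp90aa1, Hsp90ab1 and Hspd1), the lowest of 4 WM libraries was above the highest of 3 control libraries, which held for 7.61% of all tested genes. When the fit held only the 2 groups, so that libraries after LPS no longer set the error, 4 were called, where 1.76% of all genes were called: Hspa1a (1.41 ± 0.19, SE; limma adjusted p = 0.00429), Hsph1 (limma adjusted p = 0.0236), Dnajb1 (limma adjusted p = 0.0168) and Hsp90ab1 (limma adjusted p = 0.0392). Immediate early genes were also higher in these WM libraries, with 14 of 14 above 0 and 1 called (Ier5), and a summed level of 16282.5 to 18457 FPKM against 11924 to 12694 FPKM in control cells. Summed choroid plexus markers stood at 283 to 740.0 FPKM against 76.5 to 222 FPKM, with 5 of 5 above 0 and 0 called. Summed astrocyte markers stood at 36.0 to 49.98 FPKM against 53.2 to 57.03 FPKM (0 of 4 tested called), and endothelial markers at 4.75 to 7.45 FPKM against 9.13 to 13.5 FPKM (1 of 3 tested called lower). Markers of border-associated macrophages overlapped, at 31.8 to 54.6 FPKM against 45.7 to 123 FPKM. The 2 ependymal markers listed summed to 1.05 to 3.59 FPKM against 0 to 0.138 FPKM. The part of these genes in the difference was not tested.

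At 6 hr after LPS, 0 of 10 members were called between WM and control cells (0.323% of all genes called; 0 members and 9.18% of all genes at an unadjusted p under 0.05 in limma). The largest difference was that of Hspb1, at -0.90 with a 95% interval of -1.89 to 0.09. At 24 hr, 2 of 10 were called, both lower in WM cells and both of the mitochondrial chamber, where 3.97% of all genes were called. Hspd1 was lower by a log2 of -0.51 ± 0.12 (SE; limma adjusted p = 0.0164) and Hspe1 by -0.84 ± 0.24 (SE; limma adjusted p = 0.0473). The libraries of the 2 groups did not overlap in either gene, and the share of all tested genes for which this held was not computed. The call of Hspe1 was lost without any single one of control 24 hr replicate 1, 2 or 4 or WM 24 hr replicate 2, 3 or 4 (adjusted p from 0.0568 to 0.190), and that of Hspd1 without WM 24 hr replicate 2 (adjusted p = 0.0658). With only the 2 groups in the fit, neither was called (limma adjusted p = 0.0714 for Hspd1 and 0.0924 for Hspe1), where 2.27% of all genes were called. Hspb1 differed by -1.72 ± 0.51 (SE; limma adjusted p = 0.0549), by -2.09 ± 0.52 without WM 24 hr replicate 4 (SE; limma adjusted p = 0.0275) and by -1.04 ± 0.41 without replicate 2 (SE; limma adjusted p = 0.217). Summed immediate early genes stood at 12923 to 16999 FPKM in WM cells and 4434 to 7466 FPKM in control cells at this time. Summed markers of border-associated macrophages stood at 17.1 to 34.1 FPKM in WM cells against 49.6 to 68.2 FPKM (5 of 5 tested below 0, 1 called), and those of choroid plexus at 12.2 to 32.6 FPKM against 36.3 to 55.9 FPKM (0 of 5 called). All 5 monocyte markers also had a difference below 0 (0 called), and 1 of 3 endothelial markers tested was called lower. Summed neutrophil markers stood at 3121 to 7095 FPKM against 6268 to 15120 FPKM, with 5 of 6 below 0, a median log2 difference of -1.23 and 0 called. The part of these genes was not tested.

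**Figure D2:**
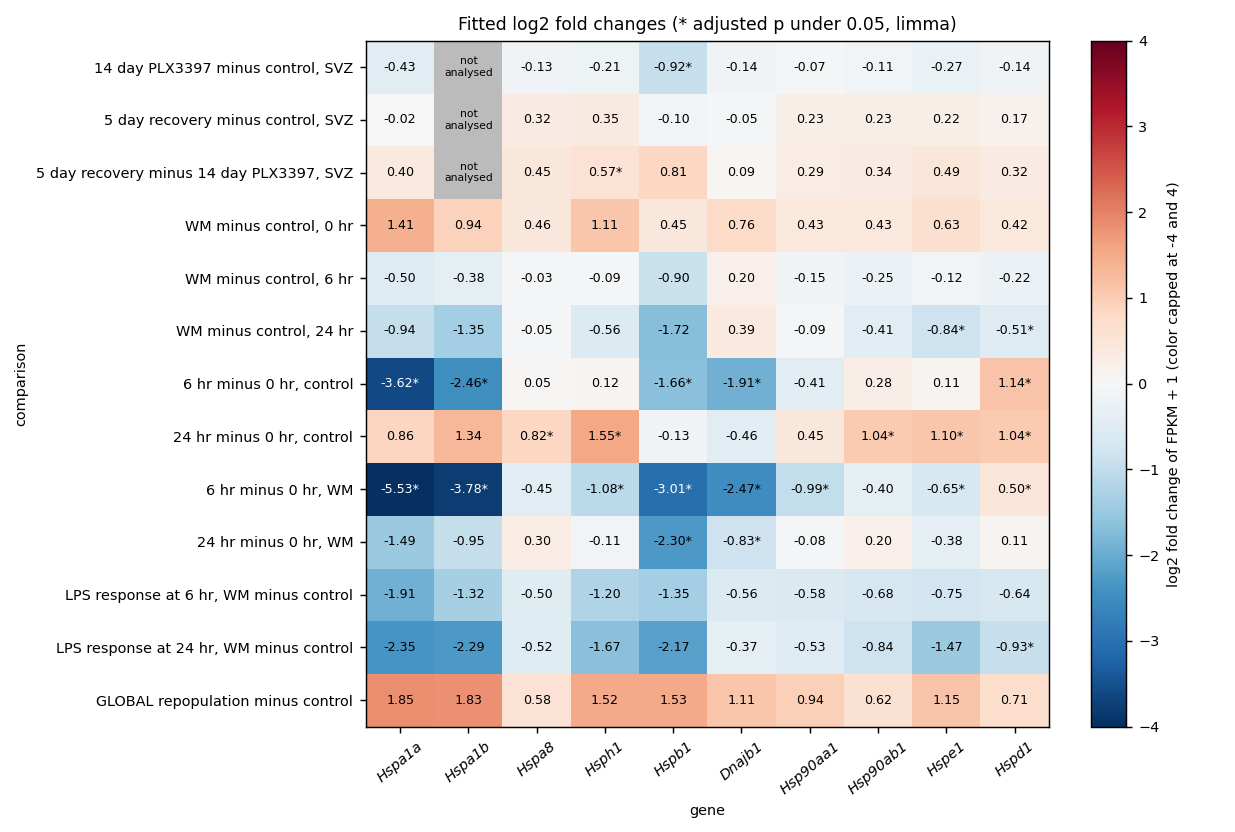
Fitted log2 fold changes of FPKM + 1 for the 10 chaperone genes (columns) in 13 comparisons (rows), colored from blue (lower) to red (higher), with an asterisk where the limma adjusted p was under 0.05. Asterisks fall mostly in the rows of 6 and 24 hr against 0 hr, and the bottom row, GLOBAL repopulation minus control, holds 10 values above 0 and no asterisk.

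GLOBAL repopulating cells had higher levels of all 10 members than their controls in these libraries, and none passed the adjusted test. Hspa1a stood at 225, 1298, 1328 and 1416 FPKM in the control libraries and at 2762, 3107 and 3464 FPKM after repopulation. The groups did not overlap, and control replicate 1 stood far below the rest. Hsph1 stood at 6.35, 17.2, 14.5 and 11.96 FPKM and then at 31.1, 35.4 and 41.9 FPKM. Hspe1 stood at 29.9, 45.4, 44.0 and 38.9 FPKM and then at 79.8, 83.4 and 102 FPKM. For each of the 10 members, the lowest of 3 repopulation libraries was above the highest of 4 control libraries, which held for 5.83% of all tested genes.

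**Figure D3:**
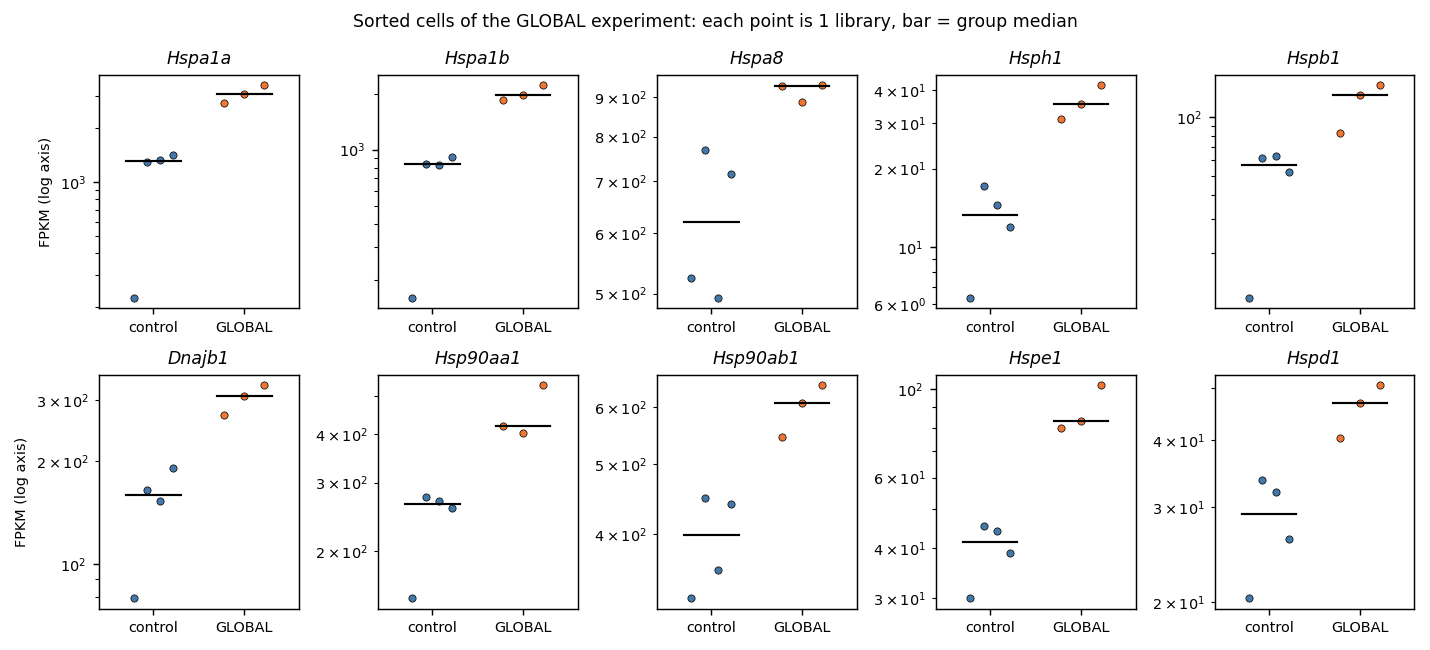
FPKM of the 10 chaperone genes on log axes in sorted cells of the GLOBAL experiment, with 1 point per library and a bar at the group median, for 4 control (blue) and 3 repopulation (orange) libraries. In each panel, the orange points lie above the blue ones, and the lowest blue point of Hspa1a, at 225 FPKM, is control replicate 1.

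The median difference of the members was 1.13 on the log2 scale, against 0.01 for all 16651 genes tested. By limma, 0 of 10 members were called, as were 0% of all genes, and at an unadjusted p under 0.05 there were 10 of 10 members and 9.03% of all genes. The smallest adjusted p was that of Hspe1, with a log2 difference of 1.15 ± 0.17 (SE; limma adjusted p = 0.0816). Hspa1a differed by 1.85 ± 0.54 (SE; limma adjusted p = 0.355) and Hsph1 by 1.52 ± 0.27 (SE; limma adjusted p = 0.151). Without control replicate 1, the difference was 1.202 ± 0.156 (SE; limma adjusted p = 0.0673) for Hspa1a, 1.26 ± 0.18 (SE; limma adjusted p = 0.0948) for Hsph1 and 1.02 ± 0.15 (SE; limma adjusted p = 0.0948) for Hspe1. That library also had the highest summed neutrophil markers (6 genes), at 22592 FPKM, against 2098 to 13745 FPKM in the other controls and 1265 to 4565 FPKM after repopulation. Summed immediate early genes overlapped between the groups, at 9449 to 18903 FPKM in controls and 12501 to 15522 FPKM after repopulation, while 13 of 14 had a fitted difference above 0 (median log2 of 0.23, 0 called). Summed endothelial markers stood at 10.03 to 15.96 FPKM after repopulation against 17.1 to 25.3 FPKM in controls, and astrocyte markers at 23.5 to 27.7 FPKM against 28.9 to 31.2 FPKM. All 5 monocyte, 6 neutrophil and 5 tested border-associated macrophage markers were below 0, and all 8 microglial markers above 0 (0 called in each). The part of these genes and cells in the difference was not tested.

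In SVZ tissue, few members were called. After 14 days of PLX3397, 1 of 9 members was called, Hspb1, which was lower, where 1.26% of all 14151 genes tested were called. It stood at 9.32, 10.4, 10.2, 11.1 and 9.08 FPKM in control tissue and at 6.04, 4.28, 5.06, 5.45 and 3.62 FPKM after PLX3397. All 5 treated libraries were below all 5 controls, a log2 fold change of -0.92 ± 0.19 (SE; limma adjusted p = 0.0183). The call was lost without any single one of control replicates 2 to 4 or PLX3397 replicates 2 and 5 (adjusted p from 0.0526 to 0.0666). All 9 fitted values were below 0, with a median of -0.14 against 0.01 for all tested genes. Control replicate 1 held 21648 FPKM of choroid plexus markers, against 23.8 to 129 FPKM in the other controls, and without it the value of Hspb1 was -0.938 ± 0.208 (SE; limma adjusted p = 0.0351). In the same comparison, 7 of 8 microglial markers were called lower, as was 1 of 3 tested markers of border-associated macrophages, all 3 of which were below 0. Summed astrocyte markers stood at 531 to 601 FPKM after PLX3397 against 426 to 476 FPKM in control tissue (1 of 6 called, higher), and 6 of 6 oligodendrocyte markers were above 0 (0 called). The part of these cells in the fall of Hspb1 was not tested.

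After 5 days of recovery, 0 of 9 members were called against control tissue (1.27% of all genes called; 5 members and 16.6% of all genes at an unadjusted p under 0.05 in limma). Against 14 days of PLX3397, 1 of 9 was called, Hsph1, which was higher, where 0.325% of all genes were called. Hsph1 stood at 101, 94.0, 94.1, 85.9 and 94.0 FPKM after PLX3397 and at 116, 138, 145, 156 and 144 FPKM after recovery, with 93.0 to 124 FPKM in control tissue. The recovery libraries were all above the PLX3397 libraries, a log2 difference of 0.57 ± 0.09 (SE; limma adjusted p = 0.0107). All 9 fitted values were above 0, with a median of 0.40 against -0.01 for all tested genes. In 5 members (Hspa8, Hsph1, Hsp90ab1, Hspe1 and Hspd1), the lowest recovery library was above the highest PLX3397 library, which held for 2.11% of all tested genes. Hspb1 stood at 5.76, 13.04, 14.5, 6.98 and 8.56 FPKM after recovery, wider than either other group, with a log2 difference of 0.81 ± 0.19 (SE; limma adjusted p = 0.089). The fit without recovery replicate 1 called 3 members and 0.361% of all genes, Hsph1, Hspa8 (limma adjusted p = 0.0407) and Hspb1 (limma adjusted p = 0.0229). Hspa8 was also called without recovery replicate 3 (limma adjusted p = 0.0405), and Hspe1 without recovery replicate 5 (limma adjusted p = 0.0459). The recovery libraries also held more erythrocyte marker RNA, at a summed 91.3 to 336 FPKM against 41.8 to 57.9 FPKM after PLX3397 and 32.4 to 79.3 FPKM in control tissue. In the same comparison, 4 of 8 microglial markers were called higher, with a sum of 22.8 to 32.4 FPKM after recovery, and 6 of 6 oligodendrocyte markers were below 0, with 1 called lower. Their part in the differences of the members was not tested.

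**Figure D4:**
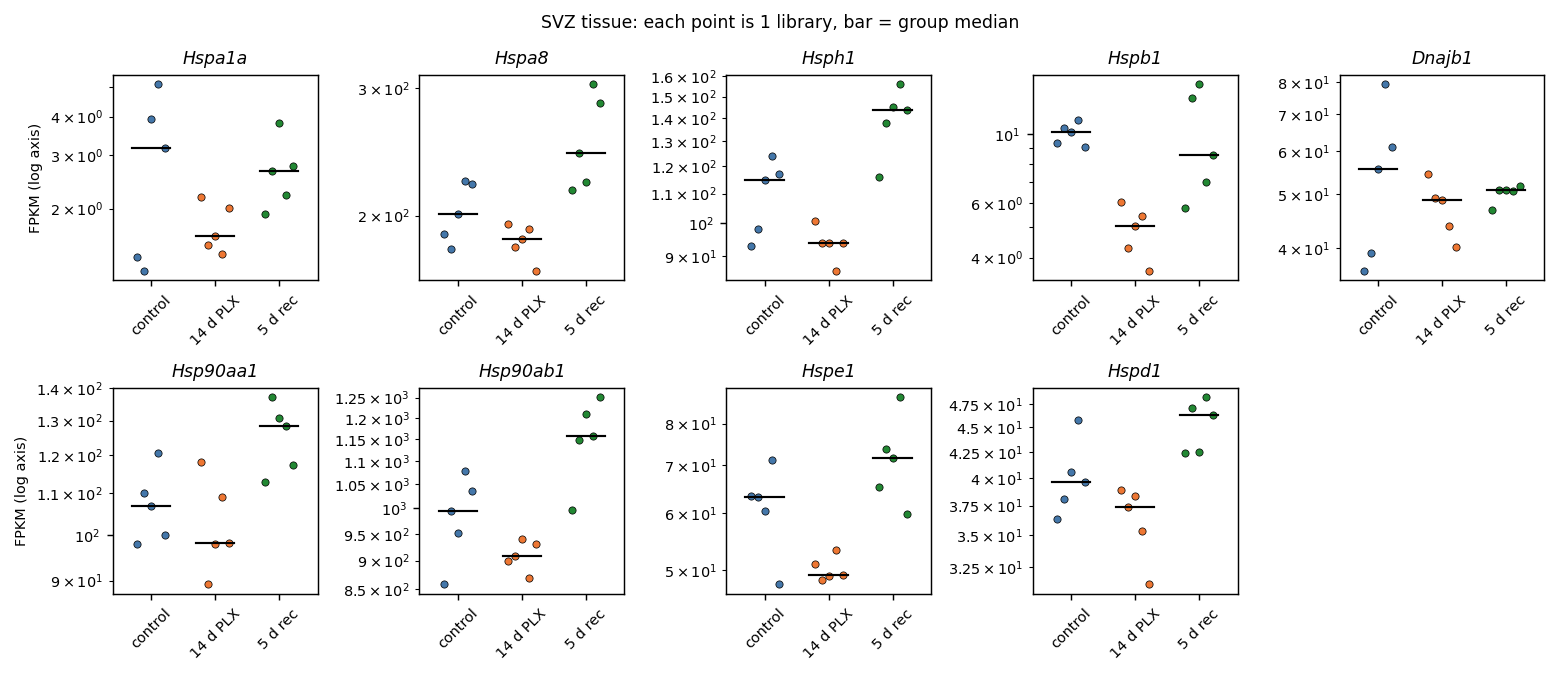
FPKM of 9 chaperone genes on log axes in SVZ tissue, with 1 point per library and a bar at the group median, for control (blue), 14 day PLX3397 (orange) and 5 day recovery (green) mice, 5 libraries each. The orange Hspb1 points (3.62 to 6.04 FPKM) lie below the blue ones (9.08 to 11.1 FPKM), and the green Hsph1 points (116 to 156 FPKM) above the orange ones.

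The spread between libraries of a group was wide for Hspa1a and Hspa1b and narrow for Hspd1 in the LPS experiment. The residual SD of log2(FPKM + 1) around group means was 1.66 for Hspa1a and 1.46 for Hspa1b, larger than that of 99.97% and 99.94% of all tested genes, whose median was 0.30. It was 0.80 for Hspb1 (larger than 98.9% of genes) and 0.14 for Hspd1 (larger than 2.12%). Without control 6 hr replicate 3 and WM 24 hr replicate 2, it was 0.86 for Hspa1a, 0.75 for Hspa1b, 0.33 for Hspb1 and 0.14 for Hspd1. In the GLOBAL experiment, Hspa1a, Hspa1b and Hspb1 had a residual SD of 1.003, 0.941 and 0.910, with a median over all genes of 0.28. These values rested on control replicate 1, without which they were 0.12, 0.11 and 0.32, with a median over all genes of 0.27. The libraries left out were chosen after seeing the data. In SVZ tissue, the residual SD was 0.41 for Hspa1a and 0.33 for Hspb1, and 0.11 for both Hsp90ab1 and Hspd1, with a median over all genes of 0.19.

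**Figure D5:**
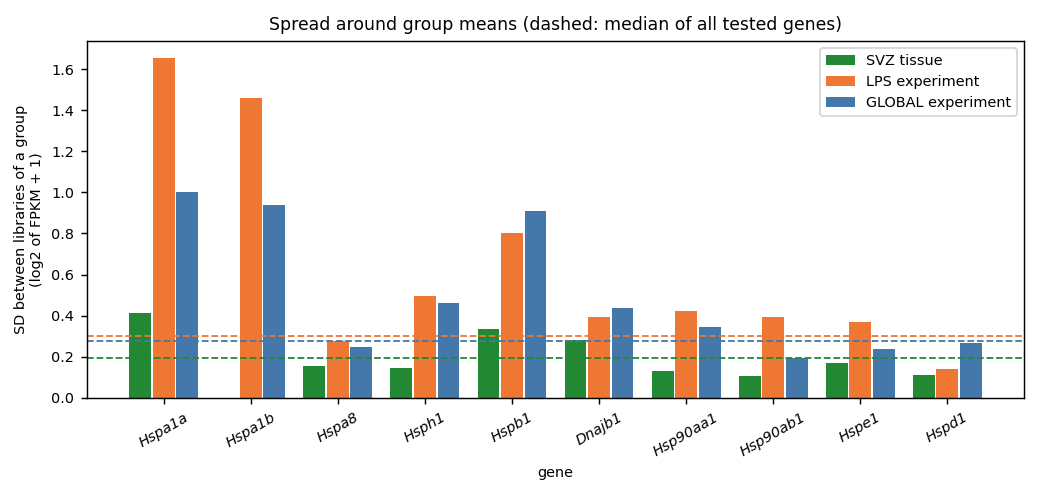
Residual SD of log2(FPKM + 1) between libraries of a group for each chaperone gene in SVZ tissue (green), the LPS experiment (orange) and the GLOBAL experiment (blue), with the median of all tested genes of each table as a dashed line. Hspa1a has the highest bar, 1.66 in the LPS experiment, and the bar of Hspd1 there, 0.14, is below the dashed line of 0.30.

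A few libraries were high or low for nearly all members together. Over the 45 pairs of members in the LPS experiment, the correlation of their deviations from group means had a median Pearson r of 0.81 (24 libraries), from 0.12 for Hsp90aa1 with Hspd1 to 0.96 for Hspa1b with Hsp90aa1. The median r of Hspd1 with the other members was 0.28. Without control 6 hr replicate 3 and WM 24 hr replicate 2, the median over the pairs was 0.40, from -0.25 to 0.84 (22 libraries). Over 45 pairs in the GLOBAL experiment, the median was 0.85 (7 libraries), and without control replicate 1, the lowest control for 9 of 10 members, it was 0.51, from -0.18 to 0.96 (6 libraries). Over 36 pairs in SVZ tissue, it was 0.42 (15 libraries), from -0.08 to 0.84. The points of each pair share a library, its depth and its isolation, and Hspa1a and Hspa1b also share reads. WM 24 hr replicate 2 was the lowest of its group for all 10 members, with 6947878 reads, the highest summed immediate early genes of its group (16999 FPKM) and the highest summed neutrophil markers (7095 FPKM, against 3121 to 4189 FPKM). Control 6 hr replicate 3 was the highest of its group for 9 members, with 1348 FPKM of neutrophil markers and 8605 FPKM of immediate early genes, both within the range of its group. It also had the highest Fos (1473 FPKM) and Jun (1177 FPKM) of the 5 libraries. Its sum over all 14 immediate early genes was the group median, so Fos and Jun do not stand for the list. The part of these genes in the chaperone levels of this library was not tested.

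Genes outside the members whose log2 levels were most like Hspd1 over the 24 libraries of the LPS experiment were Idh3a, a citric acid cycle enzyme (r = 0.93), Cct5, Cct3, Gm2695 and Cct8 (r from 0.92 to 0.91). Those most like Hsph1 were Dnaja1, a J-domain chaperone (r = 0.88), Cep95, Chordc1, Hsp90b1 and Zcwpw1, and those most like Hspa1a were Mlec (r = 0.94), Slc15a4, Dnmt3a, Mtmr4 and Ggt5. In the 15 SVZ libraries, those most like Hsph1 were Ahsa1, an activator of HSP90 (r = 0.96), Xbp1, Tmem183a, Cdk2ap2 and Stip1, and those most like Hspd1 were Fkbp4 (r = 0.90), Ahsa1, Meaf6, Stip1 and Nif3l1. The genes most like Hspa1a there, led by Sf3b3, reached r = 0.79. These r include the differences between groups and are a description.

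The other chaperones of the pathway are counted beside the shares of all genes called in either direction, which were 42.5% in control and 38.8% in WM cells at 6 hr and 21.3% and 18.8% at 24 hr. Subunits of TRiC, the folding chamber of the cytosol, were higher at 6 hr against 0 hr in 7 of 8 genes in control cells and 6 of 8 in WM cells, with Cct3 at a log2 fold change of 1.25 and 0.96. At 24 hr, 8 of 8 and 5 of 8 were higher. Of 8 mitochondrial chaperones beside Hspd1 and Hspe1, 4 and 3 were higher at 6 hr and none was lower, close to the share of all genes called, with Hspa9, the mitochondrial HSP70, at 1.14 and 1.04. HSP70 and HSP40 partners (17 tested) split at 6 hr, with 2 higher and 2 lower in control cells and 2 higher and 4 lower in WM cells, where Dnaja1 was at -1.62. HSP90 co-chaperones (10 tested) counted 3 higher and 1 lower in control cells and 1 higher and 2 lower in WM cells, with Fkbp5, a target of glucocorticoids, at 3.238 and 2.998. Of 8 genes of HSF1 and its regulators, none was called at 6 hr in control cells, and Bag3, an HSP70 cofactor, was lower in WM cells, at -0.94. Bag3 was also called between WM and control cells without LPS, where it was higher by 0.96 ± 0.21 (SE; limma adjusted p = 0.0212). Of 5 small heat shock proteins tested beside Hspb1, Hspb3 was lower at 6 hr in both kinds of cell, and in WM cells Hspb11 was also lower and Cryab higher.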

How the data were processed

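RNA-seq of 46 libraries was analysed from 3 tables of FPKM that the authors deposited. Per the study's methods, cDNA was made with Smart-seq2 and reads were aligned with STAR, and the submitters' processing notes also name featureCounts, edgeR, limma and mm10. The labels describe another library protocol. How the authors counted reads that match several genes is not given in the sources used here, which bears on members with near copies. Whole reads were recovered from the steps between FPKM values for 99.9% of genes or more in each table, and used for depth only. All columns were used.

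Genes that reached an FPKM of 1 in 3 libraries or more entered the test with limma 3.58.1 (R 4.3.3) on log2(FPKM + 1), with all groups of a table in 1 fit and a variance trend. A fold change on this scale understates the change of low genes. The procedure was tested on simulated data. Alternatives were a pseudocount of 0.1, no filter, quantile normalization, only the groups compared, a replicate block and leaving out each library. All members were named, with at most 3 called genes per other list. The members and lists were chosen with earlier results of these data known. Python 3.11.15 was used for the rest.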

Additional observations from a re-analysis of the deposited data

Results flagged for a closer look

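Of 87 pairs of a member and a group of 4 or 5 libraries, 16 held a library far from the others (the gap to its nearest neighbour against the range of the group). Chance flags about 1 in 20 groups, and the flags share libraries. GLOBAL control replicate 1 was low for Hspa1a (225 FPKM), Hspa1b (159.7 FPKM) and Hsp90aa1 (152 FPKM). Control 6 hr replicate 3 was high for Hspa1a (458 FPKM), Hspa1b (23.4 FPKM), Hspb1 (23.7 FPKM) and Hsp90aa1 (190.5 FPKM). Control 24 hr replicate 4 was high for Hspa1b (91.9 FPKM), Hsph1 (53.8 FPKM), Hsp90aa1 (278 FPKM) and Hsp90ab1 (1584 FPKM). WM 6 hr replicate 4 was high for Hspa1a (83.6 FPKM) and Hspa1b (3.61 FPKM). Hspa1a was also high in control 24 hr replicate 2 (773 FPKM) and WM 0 hr replicate 2 (950.3 FPKM), and Dnajb1 was low in SVZ 5 day recovery replicate 1 (46.9 FPKM).

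The response of Hspd1 to LPS at 24 hr differed between WM repopulating and control cells by a test of the difference itself (log2 difference -0.93, limma adjusted p = 0.0322). The call was lost without any single one of 11 of 15 libraries, with a replicate block and with only the groups compared in the fit (limma adjusted p over the alternatives from 0.0159 to 0.0970).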

How the results depend on the processing

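Over the alternatives, 84 pairs of a member and a comparison were never called, 20 of them with a change of sign, and 43 were called at least once, 25 of them in the reported fit. Of the values of pairs called at least once, 513 kept direction and call, 53 lost the call, 25 gained it and 1 reversed. Members called for WM minus control cells at 24 hr (2 reported) numbered 1 with a pseudocount of 0.1, without a filter on low values, with a replicate block, and without the libraries that stood apart over all genes or in Hspa1a (chosen after seeing the data), and 0 with only the groups compared in the fit. For the 24 hr response of WM minus control cells (1 reported), they numbered 0 with the block, with only the groups compared, and without the libraries apart in Hspa1a. At 24 hr against 0 hr in WM cells (2 reported), 4 were called without the libraries apart in Hspa1a. WM minus control cells at 0 hr (0 reported) gave 4 with only the groups compared. The replicate block called 2 for 5 days of recovery against 14 days of PLX3397 (1 reported) and 3 for GLOBAL repopulation (0 reported: Hsph1, Dnajb1 and Hspe1, limma adjusted p = 0.0407, 0.0379 and 0.0277). Deviations of same-numbered libraries correlated by a median of 0.102 over 3 GLOBAL pairs (0.0562 to 0.137; -0.0411 over other pairs), 0.0539 over 15 SVZ pairs (-0.155 to 0.486) and -0.00106 over 55 pairs in the LPS experiment (-0.190 to 0.266). As not every pair was over 0.1 and no label names a shared litter or day, the numbers were not taken as pairs. Leaving out 1 library gave 0 to 1 called for 14 days of PLX3397 against control, 0 to 1 for recovery against control, 1 to 3 for recovery against PLX3397, 0 to 2 for WM minus control at 24 hr, 3 to 5 and 7 to 9 for 6 hr against 0 hr in control and WM cells, 1 to 2 for 24 hr against 0 hr in WM cells, and 0 to 1 for the 24 hr response. Hsp90ab1 at 24 hr against 0 hr in WM cells ran from -0.0316 without WM 24 hr replicate 4 to 0.589 without replicate 2, where it was called. The cause of these changes was not tested, other than that fewer libraries enter such fits. Under the other alternatives, calls over all genes moved by over 1.5 times for recovery against PLX3397 (0.166% with only the groups compared), GLOBAL repopulation (0.33% with the block), WM minus control at 24 hr (2.27% with only the groups compared, 2.37% without the libraries apart in Hspa1a) and 6 hr (0.136% and 0.665%), the 24 hr response (0.381% without the libraries apart over all genes, 0.0473% with a pseudocount of 0.1 and with the block) and the 6 hr response (0% to 0.00788%). Leaving out 1 library gave 0.163% to 0.609% for recovery against PLX3397, 1.01% to 2.34% for recovery against control, 0% to 0.00628% for GLOBAL repopulation, 0.506% to 0.814%, 0.182% to 0.593% and 2.30% to 3.46% for WM minus control at 0, 6 and 24 hr, and 0% to 0.0237% and 0.0473% to 0.182% for the 6 and 24 hr responses. Quantile normalization shifted the median of all genes by at most 0.048. Hspa1b rests on 1 to 63 reads in the 6 hr libraries other than control replicate 3 and on 5 in WM 24 hr replicate 2, Hspb1 on 12 to 26 and on 3 in the same libraries, and Hspa1a in SVZ tissue on 16 to 93, so small differences there were not detectable at this depth.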
